A study of Homo sapiens with 16 samples.

Results

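Long-term osimertinib was set against no treatment in wild-type PC9 cells, using the 2 deposited lists of TOP2B peak intervals for these conditions. PC9 is an established human lung adenocarcinoma line whose growth depends on a mutant, active EGFR, and osimertinib is a kinase inhibitor that binds mutant EGFR covalently. All intervals on chromosomes 1 to 22 were taken, 15018 in untreated cells and 9632 under osimertinib, which made 24650 of the 44922 intervals in the 4 lists of the series. The untreated cells were wild type and received no drug. The treated cells were wild type and had been kept under osimertinib for 6 to 8 weeks, with a dose that began at 100 nM and was then raised. The sources used here do not give the final dose. For comparison, the 2 lists of PC9 cells with a METTL7A knockout, 1 untreated and 1 under osimertinib by the same scheme, were counted in the same windows and arms. METTL7A encodes a methyltransferase-like protein, and the sources used here do not say if the knockout line is 1 clone. Each list was made by the authors from 2 replicate libraries as an intersection of their peaks. With 1 list per condition, neither a replicate spread nor a test of the difference was possible, and the 95% intervals given below cover counting error only. The labels do not say if the replicates were separate cultures, and the lists hold no measure against which the labelled genotype or treatment could be checked.

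TOP2B is the beta form of DNA topoisomerase II. The enzyme cuts both strands of a DNA duplex, passes another duplex through the break and seals it again, which removes supercoils and tangles left by transcription and by the folding of chromatin into loops. Unlike the alpha form, which is tied to cell division, TOP2B is present in dividing and resting cells alike, and it is often found at promoters, enhancers and the anchors of loops. In CUT&RUN, an antibody brings a nuclease to its target in intact nuclei, and the released DNA fragments are sequenced, so that a peak is a stretch of DNA with many released fragments.

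The lists give, for each interval, its position on GRCh37 and 3 properties of the called peak from which it was cut. These properties are the area (coverage summed along the peak), the maximum (its highest coverage) and the place of that maximum. Several intervals can belong to 1 called peak. Whether these properties come from 1 of the 2 replicates or from both is not stated, so each area and maximum, and what is computed from them, may describe 1 library. The 15018 untreated intervals came from 10306 called peaks and the 9632 treated intervals from 6597, so the treated list was 0.641 times as long by intervals (95% interval 0.625 to 0.658) and 0.64 times as long by called peaks. Intervals that shared a called peak with another interval made up 49.99% of the untreated and 49.93% of the treated list. This share does not measure how much of a called peak was cut away, which could differ between the lists. The 95% intervals on counts of intervals treat each as independent. Pieces of 1 called peak are not, so these 95% intervals can be too narrow.

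The lists do not give the depth of the libraries, which is unknown. Coverage came in steps, of 0.0392 in the untreated and 0.0535 in the treated list, and each maximum below 5 lay within 0.02 steps of a whole number of them. Counted in these steps, the lists began at a like level. The lowest maximum was 5 steps in both, the median maximum was 12 steps untreated and 11 treated, and the smallest area was 14350 steps times bases untreated and 15800 treated.

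Treated intervals were narrower, but a lower limit on the width of their called peaks was not. The median width was 2600 bp untreated and 1200 bp treated, with the middle part of each list between 1950 and 3600 bp and between 950 and 1450 bp (quartiles). They covered 47.5 Mb and 12 Mb. The area of a called peak divided by its maximum gives the lowest width that the peak can have, and the median of this width was 2700 bp in the untreated and 2981 bp in the treated list. The ratio of treated to untreated width was thus 0.462 by intervals (0.442 to 0.471) and 1.10 by this lower limit. For 52.0% of untreated and 70.2% of treated intervals, the highest point of the called peak was not within the interval. The true widths of the called peaks are not in the lists. The span of the intervals of a called peak had a median of 3000 bp untreated and 1350 bp treated.

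**Figure D1:**
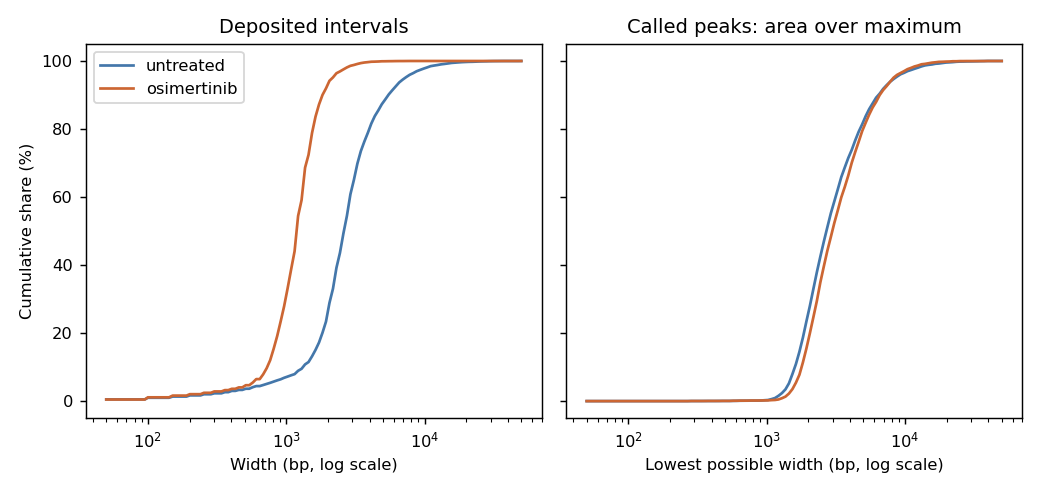
Cumulative share of intervals by width (left) and of called peaks by the lowest width they can have, the area over the maximum (right), on log axes in bp, for the untreated (blue) and osimertinib (orange) lists. The interval curves are apart, with medians of 2600 and 1200 bp. The called-peak curves lie closer together, with the treated curve towards larger widths around the medians of 2700 and 2981 bp.

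Wide untreated intervals were concentrated on a few arms. Arms were divided at approximate centromere positions, rounded to 1 Mb. Of the 1821 untreated intervals over 5000 bp, 1031 lay on 14q, 19q, 20q and 7p. These 4 arms, chosen after their values were seen, held 56.6% of the wide intervals and 33.6% of all untreated intervals. Intervals over 5000 bp were 27.2% of those on 14q, 21.1% on 19q, 20.5% on 20q and 15.4% on 7p, but 4.87% on 5p and 2.48% on 17q. In the treated list 9 intervals were that wide. Median widths differed little between arms under osimertinib, from 1100 to 1250 bp over the 25 arms with at least 100 intervals in either list. In untreated cells they ran from 2250 to 3100 bp.

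The chromosome arms changed places in the list. Of the 25 arms with at least 100 intervals in either list, 5 had gained at least 2-fold in share with the drug and 7 had lost at least 2-fold, which is 20% and 28% of these arms. The 5 higher arms together went from 6.04% to 28.2% of the list, and the 7 lower arms from 44.9% to 14.2%. The other 13 arms stayed within 2-fold. The ratios that follow are the share of the treated list over the share of the untreated list, so a ratio of 1 means that an arm kept its part of a list that had become shorter.

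The largest rise was on 5p, the arm that carries TERT, the gene of the catalytic subunit of telomerase. Intervals on 5p numbered 226 untreated and 1308 treated, a ratio of 9.02 (7.83 to 10.4), and their density went from 4.71 to 27.3 per Mb. On 17q, the arm of ERBB2 and of TOP2A, the numbers were 202 and 622 (ratio 4.80, 4.09 to 5.66). Of these, 80 and 411 lay at 71 to 81 Mb, and no count was made at the 2 genes. On 17p they were 254 and 434 (2.66, 2.28 to 3.12). The arm 22q had 96 and 159 (2.58, 1.99 to 3.36) and 16p had 129 and 188 (2.27, 1.81 to 2.87). All 5 rose in absolute number as well, although the treated list was shorter. By called peaks 16p was under 2-fold, at 1.81. The ratios were smallest with only those intervals that were the sole one of their called peak, at 4.58 on 5p, 2.87 on 17q, 2.15 on 22q, 1.57 on 17p and 1.56 on 16p. They were largest with only the upper part of each list, the called peaks at or above its median maximum, at 23.1 on 5p, 21.1 on 17q, 5.77 on 22q, 5.34 on 17p and 5.56 on 16p.

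The largest fall was on 1p, with 743 and 66 intervals, a ratio of 0.139 (0.106 to 0.178). On 7p, the arm of EGFR, the receptor gene whose mutant product osimertinib inhibits, there were 1133 and 188 (0.259, 0.221 to 0.302). These are counts of the whole arm, and none was made at the gene. The stretch at 55 to 56 Mb of 7p, singled out after its value was seen, held 95 and 69 (1.13, 0.818 to 1.56). The densest arm of the untreated list was 20q, with 67.2 intervals per Mb, and its 2354 intervals became 456 (0.302, 0.273 to 0.334). The arm 2p had 596 and 119 (0.311, 0.254 to 0.38) and 14q had 716 and 173 (0.377, 0.317 to 0.445). Lower shares were also found on 16q with 849 and 256 (0.47) and on 11p with 358 and 113 (0.492). Both were close to the 2-fold limit, and by summed length 16q was at 0.513 and 11p at 0.545. The size of the fall on 14q depended on what was counted. Its ratio was 0.583 by called peaks (0.473 to 0.715), 0.846 with sole intervals (0.657 to 1.09), 0.254 by summed length and 0.203 with the upper part of each list by maximum. The ratio of 20q was 0.433, 0.564, 0.24 and 0.148 in the same order, and that of 1p ran from 0.0764 with the upper part to 0.248 with sole intervals.

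**Figure D2:**
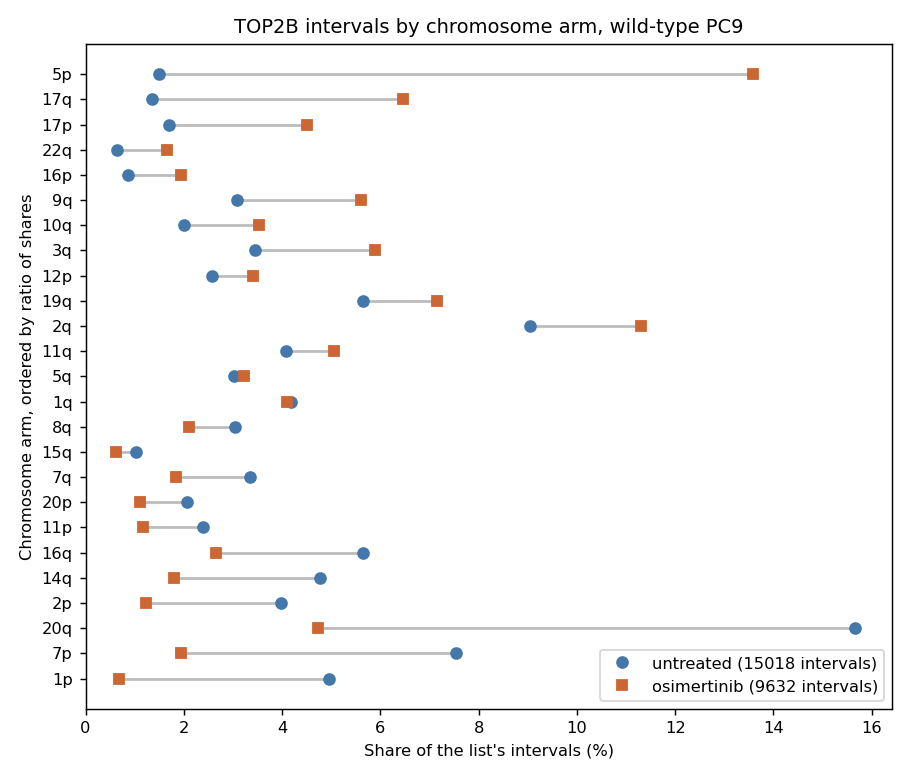
Share of each list's intervals (x axis, percent) on the 25 chromosome arms with at least 100 intervals in either list, untreated (blue circles) and osimertinib (orange squares), ordered by the ratio of shares. The arm 5p goes from 1.5% to 13.6%, the arm 20q from 15.7% to 4.73%, and the arms 5q and 1q stay near their share.

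The short and the long arm of a chromosome could differ. On chromosome 5, the long arm held 453 and 311 intervals (ratio 1.07, 0.924 to 1.24) while the short arm rose 9.02-fold. On chromosome 1, the long arm held 629 and 395 (0.979, 0.86 to 1.11) while the short arm fell. On chromosome 16 the short arm rose and the long arm fell. Chromosome 18 was sparse in both lists, with 0 and 26 intervals on 18p and 51 and 2 on 18q. Of the 13 arms within 2-fold, 2q was the richest, with 1359 and 1089 intervals (1.25, 1.15 to 1.35). The 12p arm had 386 and 329 (1.33, 1.14 to 1.54), and 8q had 458 and 203 (0.691, 0.583 to 0.817). Genes are named here only to place the arms, and none was examined, since GRCh37 gene models were not used here.

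At the scale of 1 Mb the differences formed blocks. Intervals were counted by their midpoints, and the 303 windows in which either list had 20 or more were examined. Of these, 74 had 20 or more in both lists. Each other window was examined only through the list in which it held more intervals. The numbers of windows past 2-fold, and their parts of the lists, follow in part from this choice. The share of the list was at least 2-fold higher with the drug in 91 windows, 30% of those examined, and at least 2-fold lower in 115, 38%. The 91 higher windows held 874 untreated and 3491 treated intervals, 5.82% and 36.2% of the lists. The 115 lower windows held 6256 and 696, 41.7% and 7.23%. The 97 windows within 2-fold held 4458 and 2647, 29.7% and 27.5%.

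Windows of one call lay side by side. Of the 91 higher windows 60 were in runs of 3 or more adjoining windows of the same call, and of the 115 lower windows 76 were. The longest lower run was 41 to 61 Mb of chromosome 20, where 20 windows in a row fell from 1733 intervals in all to 229 (ratio 0.206, 0.179 to 0.237). The longest higher run ran over 10 windows from 71 to 81 Mb of chromosome 17, where 80 intervals became 411 (8.01, 6.29 to 10.3). Another higher run was the first 8 Mb of chromosome 5, with 159 and 649 (6.36, 5.34 to 7.62). Chromosome 7 had a lower run over its first 7 Mb, where 388 intervals became 39 (0.157, 0.11 to 0.218). Chromosome 1 had one from 113 to 120 Mb, where 457 became 8 (0.0273, 0.0117 to 0.0542). Runs without a 2-fold difference existed too. From 233 to 243 Mb of chromosome 2 there were 739 and 472 intervals (0.996, 0.885 to 1.12), and from 63 to 73 Mb of chromosome 11 there were 416 and 271 (1.02, 0.868 to 1.19).

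**Figure D3:**
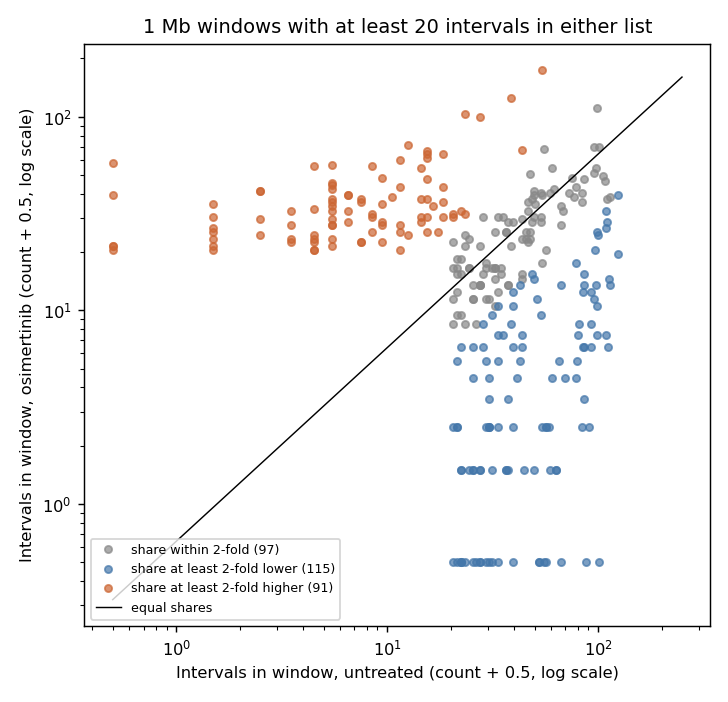
Number of intervals in each of the 303 examined 1 Mb windows, untreated (x) and osimertinib (y), with 0.5 added to each count, on log axes. Colours mark the 91 windows with a share at least 2-fold higher, the 115 at least 2-fold lower and the 97 within 2-fold, and the line marks equal shares of the 2 lists. The 22 windows without a treated and the 5 without an untreated interval are plotted at 0.5.

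Among the windows examined, some arms had nearly all of 1 call and others had both calls. All 19 windows examined on 5p were higher and all 10 on 5q were within 2-fold. On chromosome 17 the higher windows were 10 of 11 on the short arm and 10 of 10 on the long arm. All 14 windows of 1p, 17 of 18 of 7p, 10 of 11 of 7q, 26 of 31 of 20q and 9 of 11 of 2p were lower. Many of these windows were examined only through the list in which they held more intervals, as all 14 of 1p were. Such counts therefore follow in part from the choice of windows, and do not describe the rest of an arm. The 1 window of 7p that was not lower, at 55 to 56 Mb, held 95 and 69 intervals (ratio 1.13, 0.818 to 1.56). Its neighbours held 109 and 26 at 54 to 55 Mb (0.372, 0.233 to 0.575) and 49 and 14 at 56 to 57 Mb (0.446, 0.227 to 0.82). The window at 55 to 56 Mb was singled out after its value was seen. Its difference from its neighbours was not tested, since pieces of 1 called peak are not independent counts. No 2-fold difference was found in the 6 windows of 8q.

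Other arms were split, as counts in windows of 5 Mb show. On 19q, the arm of the receptor kinase gene AXL, there were 11 higher and 6 lower windows of 1 Mb. Between 30 and 45 Mb the 3 windows of 5 Mb had ratios of 15.3, 12.6 and 15.2, between 45 and 50 Mb the ratio was 2.36 (1.47 to 3.85), and between 50 and 55 Mb it was 0.289 (0.219 to 0.377). The numbers of intervals there were 17 and 167 at 30 to 35 Mb and 356 and 66 at 50 to 55 Mb. On 9q the change came near 120 Mb, with 83 and 43 intervals at 115 to 120 Mb (0.808, 0.546 to 1.18) and 11 and 34 in the 5 Mb after it (4.82, 2.38 to 10.5). The next 4 windows of 5 Mb, to the end of 9q, had ratios of 6.36, 5.67, 4.24 and 4.85. On 16q, 211 and 8 intervals at 55 to 60 Mb (0.0591) stood against 111 and 142 at 85 to 90 Mb (2, 1.55 to 2.58). On 1q, 157 and 11 at 200 to 205 Mb (0.109) stood against 21 and 83 at 235 to 240 Mb (6.16, 3.78 to 10.5). On 14q, a small group at 65 to 70 Mb went from 2 to 32 (25, 6.37 to 215) on an arm with a lower share as a whole.

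The windows with the most intervals were not the same in the 2 lists. The fullest windows of the untreated list were 56 to 57 and 60 to 61 Mb of chromosome 20, with 124 intervals each, and these held 19 and 39 under osimertinib. The fullest windows of the treated list were 1 to 2 Mb of chromosome 5, with 173 intervals against 54 untreated (ratio 5.00, 3.66 to 6.91), and 0 to 1 Mb of chromosome 5, with 124 against 38 (5.09, 3.51 to 7.52). The window at 241 to 242 Mb of chromosome 2 was full in both lists, with 98 and 111. These windows were chosen after their values were seen.

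The 8 windows with the lowest ratios had no treated interval at all. On chromosome 7 they held 101 untreated intervals at 68 to 69 Mb, 56 at 51 to 52 Mb and 52 at 67 to 68 Mb. On chromosome 1 they held 87 at 116 to 117 Mb, 66 at 115 to 116 Mb and 39 at 54 to 55 Mb, and on chromosome 16 they held 55 at 55 to 56 Mb and 52 at 48 to 49 Mb. Among the 8 windows with the highest ratios, 5 had no untreated interval. These held 57 treated intervals at 32 to 33 Mb of chromosome 19, 39 at 37 to 38 Mb of chromosome 22, 21 at 101 to 102 Mb of chromosome 7, 21 at 78 to 79 Mb of chromosome 11 and 20 at 42 to 43 Mb of chromosome 5. The others had 1 untreated interval each, with 35 treated at 9 to 10 Mb and 30 at 4 to 5 Mb of chromosome 5 and 26 at 40 to 41 Mb of chromosome 19. An empty window means that no peak there passed into the list, and does not measure an absence of TOP2B.

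The same windows were counted in the METTL7A knockout, whose libraries are separate from those of wild type. The 91 windows that were higher under osimertinib in wild type had 3.44% of the intervals of the untreated knockout and 3.49% of those of the treated knockout. The 115 lower windows had 45.9% and 47.9%. Of the 154 windows that could be examined in the knockout, 3.25% gained and 10.4% lost at least 2-fold in share with the drug. Among the 80 of the 115 lower windows that could be examined there, 8 were lower and 3 higher, and among the 4 of the 91 higher windows that could be, none was past 2-fold. By arm, the ratio in the knockout ran from 0.608 to 1.59 over the 22 arms with at least 100 intervals in its 2 lists together. The arms 17p, 17q and 22q, which rose in wild type, had fewer and are not in this range. They held 44 and 28, 57 and 34, and 40 and 14 intervals in the knockout, with ratios of 1.08, 1.01 and 0.593. The knockout ratio was 0.793 on 5p with 156 and 73 intervals and 1.04 on 20q with 2110 and 1297. On 7p it was 1.59 with 1069 and 1006, and on 1p it was 1.44 with 699 and 595. With 1 list for each condition, this difference between the genotypes was not testable.

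Few positions were common to both lists. Counterparts were defined by an overlap of at least 1 bp between the lists. Of the untreated intervals 2266 had a counterpart, 15.1% (14.5 to 15.7), and of the treated intervals 2766, 28.7% (27.8 to 29.6). By called peaks the shares were 19.5% (18.8 to 20.3) and 31.8% (30.7 to 33.0). In bases, 3.06 Mb were covered in both lists, 6.43% of the untreated and 25.4% of the treated bases. The share depends on width. With every interval replaced by 1000 bp around its midpoint, 91.1% of untreated and 86.0% of treated intervals had no counterpart.

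Where positions were shared, the treated interval was usually nested in the untreated one. The shared intervals made 2798 overlapping pairs, and in 1708 of them, 61%, the treated interval lay wholly inside the untreated interval. The reverse held in 45 pairs, and the remaining 1045 overlapped in part. The untreated interval was the wider one in 94.4% of pairs, and a wider interval more readily contains a narrower one. The share of nested pairs expected from the widths alone was not computed. Median widths in the pairs were 3750 bp untreated and 1250 bp treated, and 388 untreated intervals contained or touched more than 1 treated interval, up to 8. The maxima of paired called peaks seldom fell on the same spot. Among the 515 pairs in which both intervals were the sole one of their called peak, the maxima were a median of 1600 bp apart, 40 pairs had them within 100 bp and 175 within 1000 bp.

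Shared positions were wider and higher. The median width was 3250 bp for untreated intervals with a counterpart and 2500 bp for those without, and 1250 and 1150 bp in the treated list. The share with a counterpart rose over the classes of width from 4.99% (3.77 to 6.46) of untreated intervals up to 1000 bp to 33.9% (31.8 to 36.2) of those over 5000 bp. Over the same width the treated shares ran from 25.4% (23.9 to 26.9) to 57.5% (47.9 to 66.8) between 3000 and 5000 bp. A wider interval is more likely to be overlapped by at least 1 bp, and the classes were not counted at a fixed width. By height, relative to the median maximum of the list, the untreated share ran from 8.69% (7.74 to 9.71) below 0.8 times the median to 57.4% (44.1 to 70.0) at 2 times and above. The treated share ran from 19.4% (17.1 to 22) to 93.4% (86.9 to 97.3). Of the 106 treated intervals in the highest class 99 had an untreated counterpart, and of the 61 untreated intervals in that class 35 had a treated one.

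**Figure D4:**
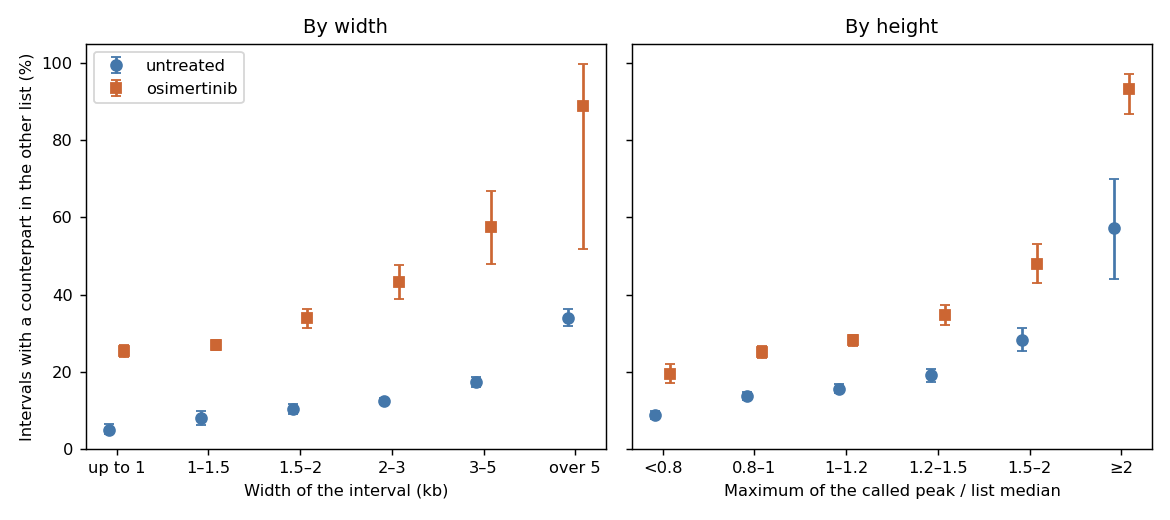
Percent of intervals with a counterpart in the other list (y axis), by width of the interval in kb (left) and by the maximum of its called peak over the list median (right). Blue circles are untreated and orange squares are osimertinib, and bars are exact 95% intervals for counting error. In both lists the shares rise with width and height, from 4.99% to 33.9% of untreated intervals over the classes of width.

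Whether a treated interval had a counterpart moved with the number of untreated intervals around it. In the windows lower under osimertinib, 73.1% (69.7 to 76.4) of the treated intervals that were left had an untreated counterpart, against 13.6% (12.5 to 14.8) in the higher windows and 53.8% (51.9 to 55.7) in the windows within 2-fold. For untreated intervals the order was the opposite, with 6.94% (6.32 to 7.60) in lower, 42.7% (39.4 to 46) in higher and 26% (24.7 to 27.3) in windows within 2-fold. Both windows and arms were classed by counts of these same 2 lists, so such an order follows in part from the classing. By arm, 75.2% of treated intervals on 20q and 79.8% on 7p had a counterpart, but 13.2% on 5p and 8.84% on 17q. On 20q untreated intervals covered 25.1% of the arm, and on 5p they covered 1.22%. In the 74 windows with at least 20 intervals of each list, 53.5% (51.7 to 55.3) of treated intervals had a counterpart, where untreated intervals covered 21.4% of the bases. An interval meets covered bases more often than a single base does, so the covered part is not the share of counterparts to be expected. That share was not computed.

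Most intervals without a counterpart had an interval of the other list within 100 kb, 67.3% (66.5 to 68.1) of the untreated and 71.0% (69.9 to 72.1) of the treated. The nearest treated interval was a median of 37.2 kb away from the untreated intervals without a counterpart. For treated intervals without a counterpart, the nearest untreated one was a median of 24.8 kb away. Within 10 kb lay 26% of the untreated (25.2 to 26.7) and 35.2% of the treated (34.1 to 36.4). More than 1000 kb away lay 8.33% (7.85 to 8.82) and 7.66% (7.04 to 8.32).

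Broad called peaks could persist while their pieces changed. A stretch of chromosome 2 gave 1 called peak in each list, with 12 untreated intervals from chr2:222259851-222351450 and 15 treated intervals from chr2:222262601-222344550. All 15 treated pieces and 8 of the 12 untreated pieces had a counterpart. The untreated called peak with the most pieces lay at chr19:55720251-55846150, where 3 of its 16 intervals had a counterpart. The treated called peak with the most pieces lay at chr5:1200451-1267450, with 18 intervals of a median 1375 bp, of which 5 had one. These called peaks were chosen after their values were seen.

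The highest shared peaks lay mostly next to centromeres. Pairs were ranked by the geometric mean of their 2 maxima, each over its list median. The first was at chr7:61968501-61970850 in the untreated and chr7:61968551-61969950 in the treated list, with maxima of 113 and 106, or 240 and 181 times the list median, about 1.97 Mb from the centromere position used. The next were chr6:58776151-58780200, with maxima of 39.3 and 113 (83.4 and 193 times the median), and chr1:121484251-121485500, with 46 and 69.9 (97.8 and 119 times). The fourth and the fifth lay at chr16:46416251-46430550, with 23.1 and 24.1 (49.1 and 40.9 times), and chr16:46387951-46393400, with 12.2 and 16.5 (25.8 and 28 times). These 5 were the named pairs, and they lay between 1.97 and 9.42 Mb from the centromere positions. Lower ranks were mixed, with rank 6 at 2.385 Mb and rank 7 at 33.15 Mb. Positions beside centromeres are rich in repeated satellite sequence, to which reads cannot be assigned with the same certainty as elsewhere. What part this had in these maxima was not tested.

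Called peaks without a counterpart were lower. In the untreated list the highest lay at chr7:55068351-55077600, at 2.42 times the list median and 2.45 kb from the nearest treated interval. It was followed by chr7:55704551-55722050 (2.25 times), chr19:54985601-54991350 (2.17 times), chr14:102605701-102621500 (2.08 times) and chr8:58122051-58123100 (2 times). In the treated list the highest lay beside the centromere at chr5:49434001-49434500, at 4.18 times the median. Next were chr1:234353351-234376300 and chr5:4708351-4709650 (both 1.91 times), and chr1:235751501-235780350 and chr5:33547101-33550250 (both 1.82 times). The first of those on chromosome 1 comprised 6 intervals and ended or began 0.3 kb from an untreated interval, and the one at 4.7 Mb of chromosome 5 was 163 kb from any.

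At shared positions, called peaks were mostly higher under osimertinib on the arms whose share rose and lower on those whose share fell. Heights were compared as the maximum of the called peak over the median maximum of its own list, because the scaling of the coverage is not stated, and pairs on 1 called peak repeat its value. Over all 2798 pairs the treated height was above the untreated one in 45.6%. On 5p it was above in 171 of 177 pairs, with median heights of 0.917 untreated and 1.36 treated. It was above in 47 of 56 pairs on 17q, in 91 of 117 on 17p and in 26 of 31 on 16p. On 20q it was above in 37 of 347 pairs, with medians of 1.33 and 0.909, on 7p in 18 of 150 and on 14q in 4 of 110, with medians of 1.5 and 1. By class of arm, the arms with higher shares had 342 of 391 pairs above (87.5%) and those with lower shares 114 of 768 (14.8%). Shares and heights were read from the same 2 lists, so the heights are not separate evidence for the shares. The correspondence was not complete. On 2p, whose share fell, 16 of 31 pairs were above, and on 19q, whose share stayed within 2-fold, 35 of 185 were.

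**Figure D5:**
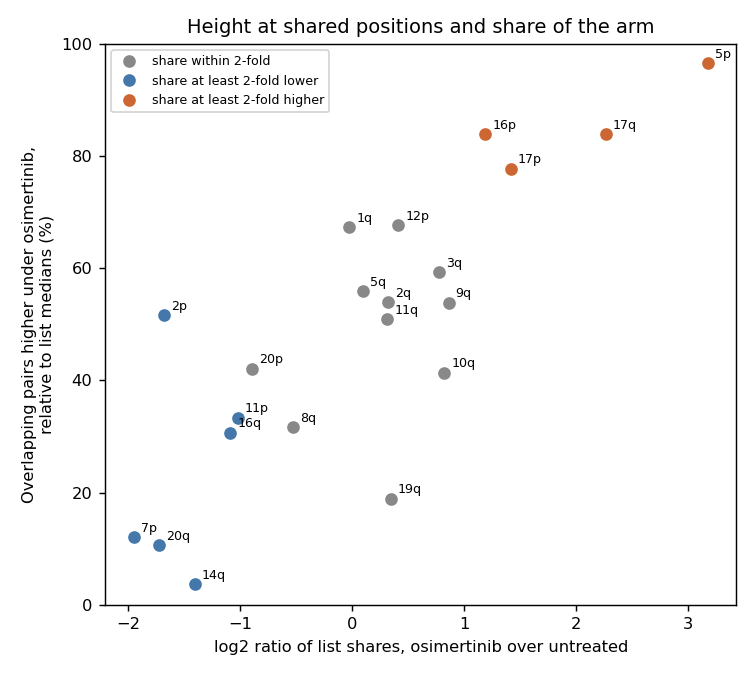
For the 21 arms with at least 20 overlapping pairs and at least 100 intervals in either list, the log2 ratio of list shares (x axis) against the percent of pairs whose treated height, relative to its list median, was above the untreated one (y axis). Colours mark arms with shares at least 2-fold higher, at least 2-fold lower or within 2-fold. The arm 5p is at the top right, with 171 of 177 pairs above, and 7p, 20q and 14q are at the bottom left.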

How the data were processed

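TOP2B CUT&RUN peaks of wild-type PC9 cells were analysed, untreated and osimertinib, 2 libraries each. Per the submitters' processing notes, the build was GRCh37 and the tools included SEACR, bedtools 2.30, deepTools 3.5.1, Bowtie2 2.4.2, SAMtools 1.16, FastQC and Trimmomatic. The sources used here do not give their settings, any control or the scaling of the coverage. The authors' lists have no header. Column 4 is a deposited score, the area of the called peak, and column 5 a deposited signal, its maximum coverage. Intervals sharing columns 1, 4, 5 and 6 were collapsed into 1 called peak. Overlap, windows and shares were computed with pandas 2.3.3 and NumPy 2.4.6, and exact Clopper-Pearson and conditional 95% intervals with SciPy 1.17.1; functions were tested on simulated data. Positions count from 1. The comparison, its rule and the lists of arms were chosen with earlier results of these data known. Named were, by rule, the 5 arms with the highest and the 5 with the lowest ratios, the 8 highest and 8 lowest windows, the 5 highest shared pairs and the 5 highest unmatched called peaks per list. Genes were not assigned and sequences not read, because a GRCh37 genome or annotation was not used here. The 8 H2A samples were not analysed. Alternatives were called peaks, sole intervals, stricter maxima, other overlaps, windows and minima, summed length and numbers in place of shares; intervals of 1000 bp, equal numbers of called peaks and the area over the maximum were added after the data had been seen.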

Additional observations from a re-analysis of the deposited data

Results flagged for a closer look

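Mitochondrial intervals were outside the comparison of chromosomes 1 to 22. Their highest maximum was 176 times the list median under osimertinib and 135 times in untreated cells, with 2 and 1 intervals. The treated value was listed because these intervals had been left out of the analysis. The difference was not tested.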

How the results depend on the processing

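No paired analysis was possible because each condition had 1 list made from both replicates, and for the same reason no replicate could be left out. The number of intervals, treated over untreated, was 0.731 with only called peaks at or above the median maximum of their list (stricter maxima), and the width ratio was then 0.414. The width ratio was reversed, at 1.10, with the lowest width of the called peak in place of the interval width; this is a lower limit for the called peak, not a width of the interval. Untreated intervals without a counterpart were 84.9%, and 80.5% by called peaks, 97.0% with an overlap of 50% of both intervals, 81.4% with intervals extended by 1000 bp, 88.1% with stricter maxima, 93.2% with sole intervals, 91.1% with 1000 bp around midpoints and 82.6% with equal numbers of called peaks. Treated intervals without a counterpart were 71.3%, and in the same order 68.2%, 95.4%, 64.9%, 77.8%, 89.3%, 86.0% and 74.9%. Windows with a higher share were 22.4% by called peaks, and windows with a lower share were 48.8% by numbers in place of shares and 47.6% with stricter maxima. Shared bases were 5.22% of the untreated and 20.9% of the treated bases with stricter maxima, and 2.55% and 9.21% with sole intervals. The other 15 values of these results stayed within the 95% interval of the main value, or for width within the range given with it. The 12 arms past 2-fold kept their direction in all 4 alternatives run on them, and 9 of 12 stayed past 2-fold by called peaks, 7 with sole intervals, 12 with stricter maxima and 10 by summed length. Depth is unknown, so a position missing from a list may hold signal under its limit.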

Other observations

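Chromosome X, outside the comparison by its rule, held 262 intervals of the untreated list and 21 of the treated list, 1.72% and 0.217%.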
